A study of Mus musculus with 18 samples.

Results

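Gene expression in control liver type 1 innate lymphoid cells (ILC1s) was compared with that in control liver natural killer (NK) cells, 3 libraries against 3. These 6 libraries are those that the labels name as liver, control, and either cell type, out of 18 in the series. All came from C57BL/6 mice 8 weeks old of the genotype Ncr1-Cre, in which the promoter of Ncr1, the gene of the receptor NKp46, drives Cre recombinase. ILC1s and NK cells alike therefore carried the Cre, and no wild-type group was used here. The other 12 libraries are liver ILC1s and NK cells from mice that also carry Rosa26-RARα403, an altered retinoic acid receptor α, and spleen ILC1s of both genotypes. Each library was made from 200 sorted cells with the SMART-seq HT kit, a method that copies and amplifies whole transcripts from very little RNA. Both populations were sorted as negative for CD3 and positive for NK1.1 and NKp46. ILC1s were taken as CD49a+, CD49b low and IL-7R+, and NK cells as CD49a− and CD49b+. The genes of those markers (Itga1, Itga2, Il7r, Ncr1 and Klrb1c) follow from the sort.

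ILC1s and NK cells both depend on the transcription factor T-bet and both make interferon-γ, but they differ in where they live and how they act. ILC1s stay in the tissue where they develop, and in the liver they lie in the sinusoids, held there by chemokine receptors and integrins, where they are an early source of cytokines. NK cells circulate, mature under the factor Eomes, acquire inhibitory and activating Ly49 receptors that read MHC class I, and kill target cells with perforin and granzymes.

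The 6 libraries held 3452279 to 8995720 counts on genes, with at least a count for 14307 to 16853 genes. A level of 3 counts, used below as the floor per library, was 0.333 to 0.869 CPM, that is, counts scaled to a common library total. Intervals and floors cover counting error only. Each level is a log2 CPM (prior count 2), and 3 values in a row stand for libraries 1, 2 and 3. Which libraries came from 1 animal is not in the labels, so the p-values measure the spread between these 6 libraries, which may be technical. Across genes, the mean Pearson correlation of a library with the others of its group was 0.832 to 0.888, against 0.747 to 0.84 for pairs of an ILC1 and an NK library. Liver ILC1 library 1 stood apart in RNA of other liver and blood cells. Its summed level of 28 hepatocyte markers was 394.5 CPM, against 4.229 to 33.77 in the other 5 libraries. That of 18 macrophage and Kupffer cell markers was 385.1 CPM against 0.2193 to 25.04, and that of 16 dendritic and erythroid markers 2774 CPM against 252.9 to 442.8. Counts of called genes are therefore given without it too. Xist, which is transcribed from an inactive X, had at least 596 counts in library 3 of both cell types and at most 7 in libraries 1 and 2. Both sexes are thus present in each group.

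Of 11522 genes with enough counts to test, 343 (2.98%) passed an adjusted p of 0.05 in edgeR's quasi-likelihood test, 197 higher in ILC1s (1.71%) and 146 lower (1.27%). In all 343 the 3 ILC1 values lay on 1 side of the 3 NK values, as they did in 2227 (19.3%) of all genes tested. The median log2 fold change of the genes higher in ILC1s was 3.53, or 3.47 with genes at 0 counts in a group set at their lower bound. That of the genes lower in ILC1s was −2.22 either way, while the median over all genes tested was 0.01. Of the 197 higher genes 36 had 0 counts in all NK libraries, and of the 146 lower genes 12 had 0 in all ILC1 libraries. With 200 cells a library, fewer cells that express a gene and less RNA per cell cannot be told apart. Without liver ILC1 library 1 the test gave 109 genes higher and 106 lower, and leaving out any 1 of the 6 libraries gave 71 to 109 higher and 43 to 106 lower. All 6 of those fits kept 93 of the calls, 54 higher and 39 lower. For genes named below whose call was lost in such a fit, the libraries concerned are given with the adjusted p. Counts of called members of a gene list are to be read against the 1.71% higher and 1.27% lower of all genes tested. The lists were chosen with earlier results known, so those counts are descriptions. A member with hardly any counts in 1 group passed the filter on low counts through the other group alone. Its direction was thus fixed in advance, and it adds no support to the count or median of its list.

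**Figure D1:**
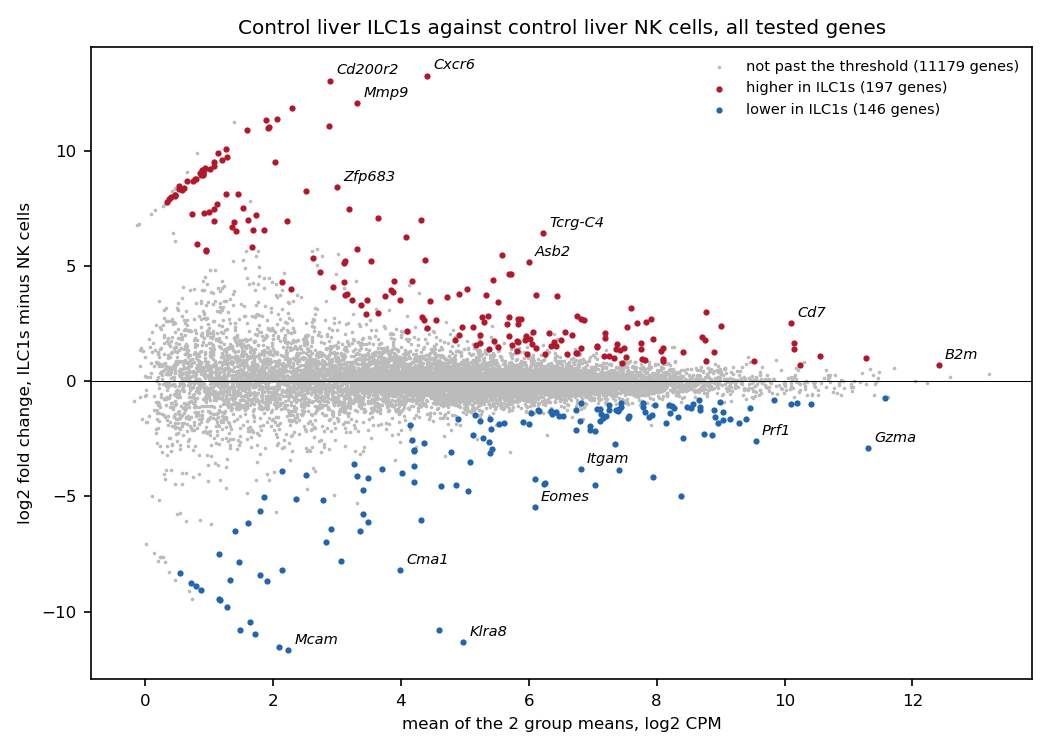
Log2 fold change of ILC1s minus NK cells (vertical axis) against the mean of the 2 group means in log2 CPM (horizontal axis) for all 11522 tested genes, 1 point a gene, with genes past an adjusted p of 0.05 in red (197 higher in ILC1s) and blue (146 lower). The points along the 2 slanted edges at left are genes with 0 counts in a group, whose fitted fold change depends on the prior count.

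The labels were set against markers of both cell types. These were chosen with earlier results known and hold the genes of the sort, so their counts are a description. Of 11 genes listed as ILC1 markers all 11 were higher in ILC1s. Among them is Cd3e, which is also on the list of T cell genes below. Tmem176a and Tmem176b, also among them, are on the list of genes of ILC2s and ILC3s, other innate lymphoid cells. Of 12 NK markers 10 were lower and 2 (Klra9 and Ly6c2) did not pass, and of 7 genes that both cell types use 0 passed in the main edgeR fit. Of those 7, 4 had an unadjusted p under 0.05, DESeq2 called 2 and limma-voom 1. An edgeR fit with the replicate number as a block called Nkg7 and Klrb1c, and Klra9 of the NK markers, all lower in ILC1s. Among the genes of the sort, Itga1 (CD49a) stood at 7.61, 8.09 and 8.49 log2 CPM in ILC1s and −1.59, 2.16 and 1.09 in NK cells (log2 fold change 7.02, SE 0.80, adjusted p = 0.00312). Il7r was higher (log2 fold change 2.69, adjusted p = 0.0097) and Itga2 (CD49b) lower (log2 fold change −2.62, adjusted p = 0.0407), while Ncr1 (log2 fold change −0.01, adjusted p = 0.991) and Klrb1c, the gene of NK1.1 (log2 fold change −0.59, adjusted p = 0.315), did not pass. The Il7r call was lost without NK library 3, with adjusted p = 0.062. The Itga2 call was lost without ILC1 libraries 1 and 2 and NK libraries 1, 2 and 3, with adjusted p up to 0.153. Nkg7, a protein of cytotoxic granules present in both cell types, was high throughout, at 11.52, 11.15 and 11.15 log2 CPM in ILC1s and 12.18, 11.77 and 11.92 in NK cells (log2 fold change −0.68, adjusted p = 0.0609), and so was Il2rb, a receptor chain for interleukin-2 and interleukin-15, at 11.71, 11.43 and 11.69 log2 CPM in ILC1s and 11.18, 11.14 and 10.89 in NK cells (log2 fold change 0.54, adjusted p = 0.0864).

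**Figure D2:**
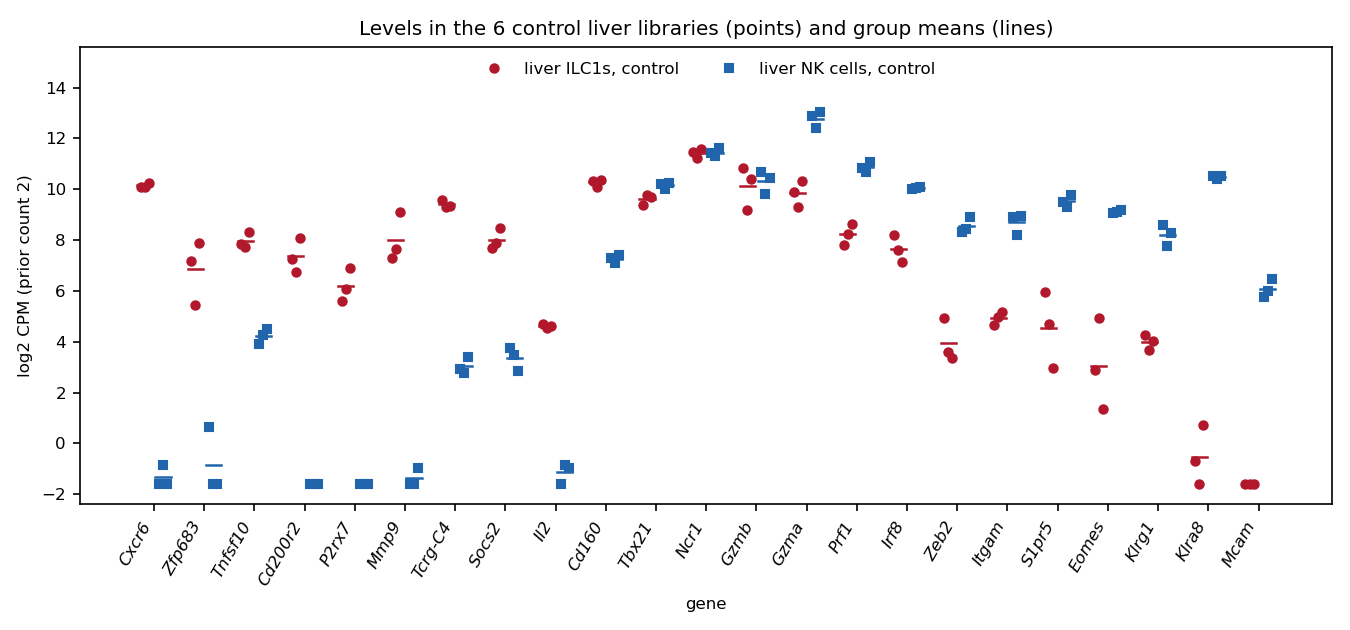
Level in log2 CPM (prior count 2) of 23 genes in each of the 6 libraries, red circles for ILC1s and blue squares for NK cells, with lines at the group means. Cxcr6 to Cd160 lie higher in ILC1s, Tbx21, Ncr1 and Gzmb lie close together, and Gzma to Mcam lie lower; the lowest points, near −1.6, are libraries with 0 counts.

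Several transcription factors of NK maturation were lower in ILC1s, and T-bet did not pass. Eomes, which drives NK maturation, was 2.90, 4.94 and 1.34 log2 CPM in ILC1s and 9.08, 9.12 and 9.19 in NK cells; its 3 ILC1 libraries spread over several log2 units and all lay below the NK cells (log2 fold change −5.46, SE 0.77, adjusted p = 0.00911). Zeb2, a transcriptional repressor that promotes late NK maturation, stood at 4.94, 3.60 and 3.35 log2 CPM in ILC1s and 8.34, 8.42 and 8.91 in NK cells (log2 fold change −4.43, SE 0.45, adjusted p = 0.00197). Irf8, needed for NK responses to virus, was lower by a smaller step and was nearly equal in the 3 NK libraries, at 8.19, 7.63 and 7.15 log2 CPM in ILC1s and 10.03, 10.06 and 10.10 in NK cells (log2 fold change −2.34, SE 0.26, adjusted p = 0.00269). Both calls, and that of Eomes, were kept in all 6 fits that left out a library. Klf2, which promotes exit from tissue, was lower as well (log2 fold change −2.73, adjusted p = 0.0302). The Klf2 call was lost without ILC1 libraries 1 and 3 and NK libraries 1, 2 and 3, with adjusted p up to 0.122. Of 18 tested factors on a list of NK maturation these 4 were lower and 1 higher, Id3 (log2 fold change 4.03, adjusted p = 0.0406). The Id3 call was lost without ILC1 libraries 1 and 3 and NK libraries 1, 2 and 3, with adjusted p up to 0.191. Tbx21 (T-bet) did not pass, at 9.38, 9.79 and 9.68 log2 CPM in ILC1s and 10.23, 10.02 and 10.24 in NK cells (log2 fold change −0.54, SE 0.16, adjusted p = 0.151).

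Of 16 tested transcription factors linked to tissue residence and ILC1s, 5 were higher in ILC1s and 1 lower. Zfp683, the gene of Hobit, a factor of tissue-resident lymphocytes, had 1024, 153 and 1091 counts in ILC1s and 8, 0 and 0 in NK cells. It was present in each ILC1 library and in 1 of the NK libraries (log2 fold change 8.43, SE 1.09, adjusted p = 0.00575), and the fitted log2 fold change rose to 12.72 without NK library 1, which held those 8 counts. Ahr, the aryl hydrocarbon receptor, which senses environmental and dietary ligands, was 6.80, 6.57 and 7.0 log2 CPM in ILC1s and 4.06, 4.37 and 3.36 in NK cells (log2 fold change 2.83, SE 0.33, adjusted p = 0.00372). These 2 calls were kept in all 6 fits. Ikzf2, the gene of Helios (log2 fold change 1.95, adjusted p = 0.0157), and Rora, the gene of RORα, which acts in innate lymphoid cell development (log2 fold change 2.02, adjusted p = 0.028), were higher too. The call of Ikzf2 was lost without ILC1 libraries 2 and 3 and NK libraries 1 and 3, with adjusted p up to 0.0792, and that of Rora without ILC1 libraries 1, 2 and 3 and NK libraries 1 and 3, with adjusted p up to 0.134. Tox (log2 fold change 1.70, adjusted p = 0.0383) was the fifth that was higher. The Tox call was lost without ILC1 libraries 1 and 3 and NK libraries 1, 2 and 3, with adjusted p up to 0.169. Prdm1, the gene of Blimp-1, which pairs with Hobit in resident T cells, was the 1 that was lower (log2 fold change −1.85, adjusted p = 0.0353). The Prdm1 call was lost without ILC1 libraries 1 and 2 and NK libraries 1, 2 and 3, with adjusted p up to 0.136. The other 10, among them Gata3, Tcf7, Id2 and Runx3, did not pass.

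Genes of tissue retention and exit went both ways, 4 higher and 4 lower of 15 tested (53.3% called, against 2.98% over all genes). Cxcr6, a chemokine receptor whose ligand is made in the liver sinusoids, had the smallest p of all genes. It had 7875, 3814 and 5548 counts in ILC1s and 0, 2 and 0 in NK cells, a ratio of group totals, scaled to library size, of 11800 (95% counting interval 3270 to 97700) (adjusted p = 4.88e-06). The 3 ILC1 libraries lay within 0.2 log2 CPM of each other, at 10.11, 10.10 and 10.25. The promoter of Cxcr6 is shown because the gene had that smallest p. It is RefSeq's 250 bases before to 50 after the start of the transcript, chr9:123806227-123806526 on the plus strand of GRCm38.p6, with a match to the core letters of RUNX sites (TGTGGT, sought on both strands; here read as ACCACA) in capitals.
Cxcr6: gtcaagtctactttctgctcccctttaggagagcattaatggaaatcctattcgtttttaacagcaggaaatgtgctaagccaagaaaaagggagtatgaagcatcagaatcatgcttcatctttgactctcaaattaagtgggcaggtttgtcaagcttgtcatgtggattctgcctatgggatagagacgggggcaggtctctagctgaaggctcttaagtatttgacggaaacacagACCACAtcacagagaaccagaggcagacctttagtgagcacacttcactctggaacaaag
RUNX letters were found in 16.8% of the 32851 promoters in the RefSeq table, in 13% of those of tested genes, in 20.1% of the 179 promoters of genes higher in ILC1s and in 15.9% of the 170 of genes lower. The letters of T-box sites (AGGTGT) were in 13.7%, 10.5%, 16.2% and 11.2% of the same 4 sets, and those of ZEB E-boxes (CAGGTG, which can overlap AGGTGT) in 20.2%, 17.1%, 24% and 20.6%. These shares describe letters in a window and are no test of binding.

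Receptors of exit and patrolling were among those lower in ILC1s. S1pr5, a sphingosine 1-phosphate receptor used to exit marrow and lymph nodes, was 5.98, 4.71 and 2.96 log2 CPM in ILC1s and 9.52, 9.30 and 9.76 in NK cells (log2 fold change −4.52, SE 0.65, adjusted p = 0.0097). The S1pr5 call was lost without ILC1 library 2, with adjusted p = 0.0534. Cx3cr1, the fractalkine receptor of patrolling cells, was lower too (log2 fold change −4.18, adjusted p = 0.048), and its log2 fold change was −6.62 without ILC1 library 1. The Cx3cr1 call was lost without ILC1 libraries 2 and 3 and NK libraries 1, 2 and 3, with adjusted p up to 0.158. In both genes the ILC1 libraries differed from each other by more than the NK libraries did. Higher in ILC1s were Cd7, a surface glycoprotein that was among the most abundant transcripts of these cells (11.40, 10.98 and 11.68 log2 CPM in ILC1s and 9.01, 8.54 and 8.97 in NK cells; log2 fold change 2.53, SE 0.22, adjusted p = 0.00103), Gpr183, an oxysterol receptor (log2 fold change 3.69, adjusted p = 0.0375), and Rgs1, a brake on chemokine receptor signalling (log2 fold change 2.12, adjusted p = 0.0406). The Rgs1 call was lost without ILC1 libraries 1, 2 and 3 and NK library 3, with adjusted p up to 0.17. The Gpr183 call was lost without ILC1 libraries 1 and 2 and NK libraries 1, 2 and 3, with adjusted p up to 0.154.

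Of 11 chemokine receptor genes tested, 3 were higher and 1, Cx3cr1, lower. Cxcr3, which draws lymphocytes towards interferon-induced chemokines, was present in both cell types and higher in every ILC1 library, at 9.28, 9.10 and 9.47 log2 CPM in ILC1s and 6.47, 6.92 and 6.22 in NK cells (log2 fold change 2.72, SE 0.23, adjusted p = 0.000981). Ccr8 (83, 16 and 101 counts in ILC1s and 0, 0 and 0 in NK cells; at least 28.5-fold higher, adjusted p = 0.0271) and Xcr1 (42, 52 and 48 counts in ILC1s and 0, 0 and 0 in NK cells; at least 23.2-fold higher, adjusted p = 0.026) were absent from NK libraries and low in ILC1s. Both calls were lost without each of the 6 libraries in turn, with adjusted p up to 0.131 for Ccr8 and 0.118 for Xcr1.

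Of 14 tested integrin subunits 3 were lower in ILC1s and 1 was higher. Itgam, which encodes CD11b, the αM chain gained by mature NK cells, was 4.66, 4.97 and 5.16 log2 CPM in ILC1s and 8.92, 8.22 and 8.94 in NK cells (log2 fold change −3.81, SE 0.27, adjusted p = 0.000364). Itga4, the α4 chain, which with β1 binds VCAM-1, was 7.15, 7.56 and 6.77 log2 CPM in ILC1s and 9.77, 9.57 and 9.62 in NK cells (log2 fold change −2.46, SE 0.22, adjusted p = 0.00117). Its partner Itgb1 was lower by a smaller step (log2 fold change −1.0, adjusted p = 0.0138). The Itgb1 call was lost without ILC1 library 3 and NK libraries 2 and 3, with adjusted p up to 0.0647. Itgb3, the β3 chain, went the other way (log2 fold change 2.58, adjusted p = 0.0162). The Itgb3 call was lost without ILC1 libraries 1 and 2 and NK libraries 1 and 3, with adjusted p up to 0.0641. The calls of Itgam and Itga4 were kept in all 6 fits, though 68.3% of the 31-base words in Itgam transcripts also occur in transcripts of another gene on either strand, so reads there may be hard to assign.

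Ly49 receptors, which recognise MHC class I on other cells, were called on the NK side alone. Of 11 tested 6 were lower in ILC1s and 0 higher, with a median log2 fold change of −3.84 against 0.01 over all genes tested. Klra8 (Ly49H, an activating receptor for a cytomegalovirus protein) had 2, 0 and 6 counts in ILC1s and 9487, 11948 and 8086 in NK cells (log2 fold change −11.34, SE 0.50, adjusted p = 2.31e-05). Klra4 (Ly49D, also activating) had 9, 0 and 0 counts in ILC1s and 6634, 7972 and 6834 in NK cells (log2 fold change −10.81, SE 0.63, adjusted p = 0.00013). Both were thus among the abundant transcripts of NK cells and at or near the floor in ILC1s. The other 4 were Klra7 (log2 fold change −3.84, adjusted p = 0.0145), Klra10 (log2 fold change −6.51, adjusted p = 0.014) and 2 genes annotated as transcribed pseudogenes, Klra13-ps at 6.86, 6.49 and 3.58 log2 CPM in ILC1s and 11.09, 10.72 and 11.54 in NK cells (log2 fold change −4.97, adjusted p = 0.0109) and Klra14-ps at 3.28, 4.74 and 3.95 log2 CPM in ILC1s and 8.52, 8.26 and 8.69 in NK cells (log2 fold change −4.44, adjusted p = 0.00105). The Klra10 call was lost without NK libraries 1 and 3, with adjusted p up to 0.0661. The Klra7 call was lost without ILC1 library 2 and NK libraries 1 and 3, with adjusted p up to 0.0734. Other members did not pass: Klra9 was 8.59, 7.19 and 8.45 log2 CPM in ILC1s and 9.58, 9.40 and 10.29 in NK cells (log2 fold change −1.61, adjusted p = 0.0647), and Klra1, Klra3, Klra5 and Klra6 were the other 4. The calls of Klra4, Klra8, Klra13-ps and Klra14-ps were kept in all 6 fits. Without a library the list had 4 to 6 lower genes, with 4 without NK library 1 or 3.

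The promoters of Klra8 (chr6:130129849-130130148) and Klra4 (chr6:130067222-130067521), both on the minus strand of GRCm38.p6 in the RefSeq table, are shown because both genes were near the floor in ILC1s and the 2 windows are alike. The table holds 2 promoters for Klra8, of which the first is shown and was aligned, and the other was not compared. Capitals mark the positions at which the 2 windows shown differ. Of 301 aligned columns 259 (86%) are identical.
Klra8: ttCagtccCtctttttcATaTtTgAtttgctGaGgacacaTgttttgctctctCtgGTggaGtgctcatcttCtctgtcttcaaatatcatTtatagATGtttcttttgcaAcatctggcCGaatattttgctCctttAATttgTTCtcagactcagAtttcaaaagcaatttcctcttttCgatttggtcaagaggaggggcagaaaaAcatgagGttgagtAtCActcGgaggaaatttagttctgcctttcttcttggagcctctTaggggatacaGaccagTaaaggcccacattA
Klra4: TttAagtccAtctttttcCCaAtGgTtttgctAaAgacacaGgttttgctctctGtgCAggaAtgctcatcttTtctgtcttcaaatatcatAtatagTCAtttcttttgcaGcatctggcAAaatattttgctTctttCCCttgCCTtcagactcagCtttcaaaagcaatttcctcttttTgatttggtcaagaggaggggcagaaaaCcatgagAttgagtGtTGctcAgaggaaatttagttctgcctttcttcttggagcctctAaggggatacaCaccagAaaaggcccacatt
Of the 31-base words in Klra8 transcripts 55% occur in transcripts of any other gene, and of those in Klra4 17.5%, against a median of 2.28% over all tested genes. The counting of reads with more than 1 alignment is not stated in the labels, so the level of each single Ly49 gene is uncertain.

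Other receptors of the NK gene complex differed singly. Klrg1, an inhibitory receptor of mature NK cells that binds cadherins, was 4.28, 3.69 and 4.03 log2 CPM in ILC1s and 8.61, 7.75 and 8.27 in NK cells (log2 fold change −4.25, SE 0.30, adjusted p = 0.000364). Klri2, which pairs with Klre1, was lower (log2 fold change −1.81, adjusted p = 0.00678). Klrb1b, the inhibitory receptor NKR-P1B, was higher in ILC1s, at 9.80, 9.46 and 9.67 log2 CPM in ILC1s and 8.12, 7.57 and 7.90 in NK cells (log2 fold change 1.77, SE 0.19, adjusted p = 0.00267); these 3 calls were kept in all 6 fits. Clec2i, a Clr protein of the family that NKR-P1 receptors bind, was higher (log2 fold change 1.41, adjusted p = 0.0114). The Clec2i call was lost without ILC1 library 3 and NK libraries 1 and 2, with adjusted p up to 0.0607. Klrc1, the inhibitory receptor NKG2A, was abundant in both and higher in ILC1s (log2 fold change 1.12, adjusted p = 0.0254); 53.1% of its 31-base words are shared with other genes. The Klrc1 call was lost without ILC1 libraries 1, 2 and 3 and NK libraries 1 and 3, with adjusted p up to 0.105. Of 8 tested genes on a list of NKG2, CD94 and related receptors, 1 was higher, Klrc1, and 1 lower, Klri2. Of 7 tested on a list of NKR-P1 receptors, Clr proteins and Klrg1, 2 were higher, Klrb1b and Clec2i, and 1 lower, Klrg1.

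Of 22 tested activating receptors and adaptors 3 were higher in ILC1s and 3 lower. Cd226, the adhesion receptor DNAM-1, was 8.84, 8.61 and 8.73 log2 CPM in ILC1s and 5.90, 6.66 and 6.44 in NK cells (log2 fold change 2.37, SE 0.23, adjusted p = 0.00159). Plcg1, phospholipase C γ1, a signalling enzyme downstream of antigen receptors, was 6.02, 5.40 and 5.86 log2 CPM in ILC1s and 1.58, 2.37 and 2.04 in NK cells (log2 fold change 3.85, SE 0.43, adjusted p = 0.00269). Sh2d1a, the gene of the adaptor SAP, through which SLAM family receptors signal, was lower, at 3.72, 4.54 and 3.15 log2 CPM in ILC1s and 7.30, 6.95 and 6.68 in NK cells (log2 fold change −3.12, SE 0.40, adjusted p = 0.00529). These 3 calls were kept in all 6 fits. The kinase gene Syk was lower by a smaller step (log2 fold change −1.01, adjusted p = 0.0288), as was Cd247, the CD3ζ chain that NKp46 signals through (log2 fold change −1.60, adjusted p = 0.0304), and Lcp2, the adaptor SLP-76, was higher (log2 fold change 0.86, adjusted p = 0.0449). The Cd247 call was lost without ILC1 libraries 1 and 3 and NK libraries 1, 2 and 3, with adjusted p up to 0.109. The Lcp2 call was lost without each of the 6 libraries in turn, with adjusted p up to 0.16. The Syk call was lost without ILC1 libraries 2 and 3 and NK libraries 1, 2 and 3, with adjusted p up to 0.125.

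All called genes among inhibitory checkpoints and CD200 receptors were higher in ILC1s, 5 of 11 tested, with a median log2 fold change of 2.24. Of the 19 listed, 8 were not tested. Cd200r2 and Ctla4 had 0 counts in all NK libraries and passed the filter through ILC1s alone, so they could only be higher. Without ILC1 library 3, 1 member was called lower. Cd160, a receptor for the TNF receptor family member HVEM, was abundant in ILC1s, at 10.34, 10.10 and 10.37 log2 CPM in ILC1s and 7.30, 7.09 and 7.43 in NK cells (log2 fold change 3.0, SE 0.17, adjusted p = 0.00013). Cd200r2, a CD200 receptor family gene, had 1100, 371 and 1228 counts in ILC1s and 0, 0 and 0 in NK cells, at least 393-fold higher (adjusted p = 0.00109). Both calls were kept in all 6 fits. Cd200r1, the inhibitory CD200 receptor, had 1183, 441 and 1693 counts in ILC1s and 0, 37 and 0 in NK cells (log2 fold change 7.11, SE 1.09, adjusted p = 0.0131). Its call was lost without ILC1 library 3 and NK library 3, with adjusted p up to 0.0587, and the fitted log2 fold change was 13.23 without NK library 2, the NK library that held those 37 counts. Vsir, the gene of the checkpoint VISTA (log2 fold change 1.12, adjusted p = 0.023), passed, and its call was lost without ILC1 libraries 1, 2 and 3 and NK libraries 2 and 3, with adjusted p up to 0.116. Ctla4, which was low, had 55, 19 and 13 counts in ILC1s and 0, 0 and 0 in NK cells (at least 11.9-fold higher, adjusted p = 0.0479). The Ctla4 call was lost without each of the 6 libraries in turn, with adjusted p up to 0.189.

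Cytotoxic genes were unequal. Of 18 tested granule and cytotoxic genes 3 were lower, 1 higher and 14 did not pass. Gzma (granzyme A) was at 9.89, 9.31 and 10.31 log2 CPM in ILC1s and 12.87, 12.43 and 13.04 in NK cells (log2 fold change −2.90, SE 0.27, adjusted p = 0.00122). Prf1 (perforin), which forms the pore that lets granzymes into the target, was 7.81, 8.25 and 8.64 log2 CPM in ILC1s and 10.84, 10.68 and 11.08 in NK cells (log2 fold change −2.61, SE 0.23, adjusted p = 0.00113). Gzmb (granzyme B) overlapped between the groups, at 10.83, 9.18 and 10.40 log2 CPM in ILC1s and 10.66, 9.82 and 10.45 in NK cells (log2 fold change −0.06, SE 0.38, adjusted p = 0.984), and its sign turned in 2 of the fits that left out a library. Gzmc (granzyme C) was the gene that went the other way, at 6.45, 5.22 and 6.37 log2 CPM in ILC1s and 0.67, 0.75 and 1.76 in NK cells (log2 fold change 5.21, SE 0.56, adjusted p = 0.00244). Calls of Gzma, Prf1 and Gzmc were kept in all 6 fits. Gzmk (granzyme K) had 0, 0 and 0 counts in ILC1s and 37, 41 and 94 in NK cells (at least 14.1-fold lower, adjusted p = 0.0422). The Gzmk call was lost without each of the 6 libraries in turn, with adjusted p up to 0.222. Per kilobase of exon, the mean log2 level of Gzma was 9.83 in ILC1s and 12.77 in NK cells, that of Gzmb 9.61 and 9.79, and that of Prf1 6.86 and 9.50. On that scale of levels Gzma lay well above Gzmb in NK cells and close to it in ILC1s.

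Cma1, a chymase gene that is a known transcript of NK cells, had 0, 15 and 0 counts in ILC1s and 1803, 2057 and 2612 in NK cells (log2 fold change −8.19, SE 1.02, adjusted p = 0.00481). Its fitted log2 fold change was −14.06 without ILC1 library 2, the ILC1 library with counts. Serpins inside cytotoxic cells, which protect them from their own proteases, split. Serpinb9, the granzyme B inhibitor, was 8.16, 8.62 and 7.76 log2 CPM in ILC1s and 9.66, 10.01 and 10.04 in NK cells (log2 fold change −1.70, SE 0.24, adjusted p = 0.00857), and its paralogue Serpinb9b was lower too, at 35, 15 and 0 counts in ILC1s and 863, 2429 and 1181 in NK cells (log2 fold change −6.03, SE 0.78, adjusted p = 0.00593). Serpina3g was higher in ILC1s, at 10.30, 9.84 and 10.51 log2 CPM in ILC1s and 7.26, 8.32 and 7.82 in NK cells (log2 fold change 2.38, SE 0.29, adjusted p = 0.00459). Those calls were kept in all 6 fits. Serpinb1a had 304, 42 and 26 counts in ILC1s and 0, 0 and 0 in NK cells (at least 44.8-fold higher, adjusted p = 0.026). The Serpinb1a call was lost without ILC1 libraries 1 and 2 and NK libraries 1, 2 and 3, with adjusted p up to 0.0878.

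Secreted cytokines and chemokines that passed were all higher in ILC1s, 3 of 14 tested, with 11 that did not pass. Il2 (interleukin-2, a growth factor of lymphocytes) was low but even, with 185, 79 and 110 counts in ILC1s and 0, 2 and 1 in NK cells, a ratio of group totals of 171 (95% counting interval 58.1 to 833) (adjusted p = 0.00459). Ltb, a subunit of membrane lymphotoxin, which acts in lymphoid tissue organisation, was 9.12, 9.37 and 9.15 log2 CPM in ILC1s and 5.75, 7.47 and 6.16 in NK cells (log2 fold change 2.56, SE 0.42, adjusted p = 0.0154). The Ltb call was lost without ILC1 libraries 2 and 3 and NK library 3, with adjusted p up to 0.0795. Xcl1, the chemokine that draws cross-presenting dendritic cells, was 9.83, 8.27 and 8.57 log2 CPM in ILC1s and 6.30, 7.02 and 6.14 in NK cells (log2 fold change 2.52, SE 0.44, adjusted p = 0.0217). The Xcl1 call was lost without ILC1 library 3 and NK libraries 1 and 3, with adjusted p up to 0.11. Ifng, the signature cytokine of both cell types, overlapped between them, at 6.65, 7.98 and 6.62 log2 CPM in ILC1s and 7.03, 7.48 and 5.89 in NK cells (log2 fold change 0.29, SE 0.48, adjusted p = 0.922), and its sign turned in 2 of the fits that left out a library.

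Of 16 tested genes of the TNF superfamily 4 were higher in ILC1s and 0 lower. Tnfsf10, the gene of TRAIL, the death ligand by which liver ILC1s are known, was 7.86, 7.74 and 8.30 log2 CPM in ILC1s and 3.93, 4.29 and 4.51 in NK cells (log2 fold change 3.75, SE 0.27, adjusted p = 0.000364), and the call was kept in all 6 fits. Tnfrsf25, the death receptor 3, was 6.43, 6.10 and 4.93 log2 CPM in ILC1s and 2.14, −0.36 and −0.53 in NK cells (log2 fold change 5.24, adjusted p = 0.0221). The Tnfrsf25 call was lost without ILC1 libraries 1 and 2 and NK libraries 2 and 3, with adjusted p up to 0.0763. Tnfsf8, the CD30 ligand (log2 fold change 3.98, adjusted p = 0.04), passed, and its call was lost without ILC1 libraries 1, 2 and 3 and NK libraries 1 and 3, with adjusted p up to 0.133. Tnfrsf18, the costimulatory receptor GITR (log2 fold change 1.01, adjusted p = 0.0267), passed, and its call was lost without each of the 6 libraries in turn, with adjusted p up to 0.132.

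Receptors for cytokines went both ways, 3 higher and 3 lower of 19 tested. Il21r, the interleukin-21 receptor, was 7.92, 7.71 and 8.79 log2 CPM in ILC1s and 5.23, 5.05 and 5.82 in NK cells (log2 fold change 2.83, SE 0.35, adjusted p = 0.00481). Il12rb1, the shared receptor chain for interleukin-12 and interleukin-23, was 7.04, 6.82 and 6.92 log2 CPM in ILC1s and 5.38, 4.83 and 5.11 in NK cells (log2 fold change 1.82, SE 0.25, adjusted p = 0.00753). Both calls were kept in all 6 fits. Il27ra was higher (log2 fold change 1.6, adjusted p = 0.0181), and Il10ra, a chain of the receptor for the anti-inflammatory interleukin-10, lower (log2 fold change −1.61, adjusted p = 0.0138). The Il27ra call was lost without ILC1 libraries 2 and 3 and NK libraries 1, 2 and 3, with adjusted p up to 0.0793. The Il10ra call was lost without ILC1 libraries 2 and 3 and NK library 3, with adjusted p up to 0.0674. Il18rap, the accessory chain of the interleukin-18 receptor (log2 fold change −1.54, adjusted p = 0.0211), and Ifngr1, a chain of the interferon-γ receptor (log2 fold change −0.95, adjusted p = 0.0221), were the others that were lower. The Il18rap call was lost without ILC1 library 1 and NK libraries 1, 2 and 3, with adjusted p up to 0.0885. The Ifngr1 call was lost without ILC1 libraries 2 and 3 and NK libraries 2 and 3, with adjusted p up to 0.0926.

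Of 22 tested genes of JAK and STAT signalling 3 were higher in ILC1s, 2 were lower and 17 did not pass. The 3 belong to the SOCS family, whose members are induced by STAT factors and dampen the receptors that activated them, and of which 8 were tested. Socs2 was 7.69, 7.88 and 8.47 log2 CPM in ILC1s and 3.77, 3.47 and 2.84 in NK cells (log2 fold change 4.68, SE 0.35, adjusted p = 0.000414), kept in all 6 fits. Cish was 7.25, 7.26 and 7.15 log2 CPM in ILC1s and 4.68, 5.0 and 2.81 in NK cells (log2 fold change 2.80, SE 0.49, adjusted p = 0.0221). The Cish call was lost without ILC1 libraries 1, 2 and 3 and NK library 1, with adjusted p up to 0.0757. Socs1 was 7.20, 7.35 and 6.77 log2 CPM in ILC1s and 5.56, 5.95 and 5.21 in NK cells (log2 fold change 1.52, adjusted p = 0.0254). The Socs1 call was lost without ILC1 libraries 1 and 2 and NK libraries 1 and 3, with adjusted p up to 0.0992. Jak1, which serves most cytokine receptors of lymphocytes, was lower (log2 fold change −0.99, adjusted p = 0.0264), as was Tyk2 (log2 fold change −1.12, adjusted p = 0.0368). The Tyk2 call was lost without each of the 6 libraries in turn, with adjusted p up to 0.165. The Jak1 call was lost without ILC1 library 2 and NK libraries 1, 2 and 3, with adjusted p up to 0.105.

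Cish is known as a direct target of STAT5, and its promoter is shown for that reason. The RefSeq window is chr9:107296409-107296708 on the plus strand of GRCm38.p6, and 2 matches to the letters of STAT sites, TTCNNNGAA, are in capitals.
Cish: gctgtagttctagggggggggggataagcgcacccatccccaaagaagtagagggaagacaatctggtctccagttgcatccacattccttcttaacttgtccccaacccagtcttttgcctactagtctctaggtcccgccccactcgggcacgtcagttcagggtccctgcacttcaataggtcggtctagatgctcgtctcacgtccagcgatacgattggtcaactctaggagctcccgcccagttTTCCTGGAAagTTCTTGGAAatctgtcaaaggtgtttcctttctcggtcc
At least 1 such match was present in 8.3% of all promoters in the table, in 6.91% of those of tested genes, in 8.38% of those of genes higher in ILC1s and in 9.41% of those of genes lower. RNA counts alone do not show whether a factor is bound there.

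Several genes of extracellular signalling and remodelling had at most 1 count in each NK library. P2rx7, the ATP-gated channel that makes resident lymphocytes sensitive to damage signals, had 349, 233 and 541 counts in ILC1s and 0, 0 and 0 in NK cells (at least 174-fold higher, adjusted p = 0.00159). Art2b, the surface ADP-ribosyltransferase that activates this channel from extracellular NAD, had 153, 35 and 406 counts in ILC1s and 0, 0 and 0 in NK cells (at least 89.5-fold higher, adjusted p = 0.0198). The Art2b call was lost without ILC1 library 3 and NK libraries 1, 2 and 3, with adjusted p up to 0.0655. They were the 2 called genes, both higher, among 12 tested genes of ATP and adenosine signalling. Mmp9, a gelatinase that cuts basement membrane collagen, had 1111, 698 and 2481 counts in ILC1s and 0, 0 and 1 in NK cells, a ratio of group totals of 5890 (95% counting interval 1060 to 233000) (adjusted p = 0.000414). Adam19, a membrane metalloproteinase, had 311, 149 and 205 counts in ILC1s and 0, 0 and 0 in NK cells (at least 97.4-fold higher, adjusted p = 0.00159). The calls of P2rx7, Mmp9 and Adam19 were kept in all 6 fits. Of 11 tested metalloproteinases those 2 were higher, and Adamts14 was lower (log2 fold change −1.57, adjusted p = 0.0235). The Adamts14 call was lost without ILC1 library 2 and NK libraries 1, 2 and 3, with adjusted p up to 0.103.

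Of 21 tested Notch pathway genes 5 were higher in ILC1s and 1 lower. Ligands were among them: Dll1 had 150, 45 and 121 counts in ILC1s and 0, 0 and 1 in NK cells, a ratio of 434 (95% counting interval 77.3 to 17200) (adjusted p = 0.00857), and Jag1 had 139, 28 and 30 counts in ILC1s and 1, 0 and 0 in NK cells, a ratio of 270 (95% counting interval 48 to 10700) (adjusted p = 0.0254). The Dll1 call was lost without ILC1 library 3, with adjusted p = 0.0503. The Jag1 call was lost without each of the 6 libraries in turn, with adjusted p up to 0.108. Dtx1, the ubiquitin ligase Deltex1, which is a Notch target, was 6.79, 6.95 and 7.75 log2 CPM in ILC1s and 3.26, 3.78 and 3.50 in NK cells (log2 fold change 3.73, SE 0.35, adjusted p = 0.00132), kept in all 6 fits. Psen2, a catalytic subunit of the protease that releases the Notch intracellular domain (log2 fold change 1.81, adjusted p = 0.0131), and Dtx3 (log2 fold change 1.19, adjusted p = 0.0435) were higher as well. The Dtx3 call was lost without each of the 6 libraries in turn, with adjusted p up to 0.165. The Psen2 call was lost without ILC1 library 3 and NK libraries 2 and 3, with adjusted p up to 0.0647. Nrarp, another known Notch target, went the other way, with 4, 4 and 6 counts in ILC1s and 103, 127 and 78 in NK cells (log2 fold change −3.87, adjusted p = 0.0343). The Nrarp call was lost without each of the 6 libraries in turn, with adjusted p up to 0.135. Without a library 1 to 3 of the list were higher and 0 lower, with 1 higher without ILC1 library 3. Of 19 tested genes of the TGF-β pathway, which shapes ILC1s in several tissues, 1 was called (5.26%, against 2.98% over all genes). It was Eng, a TGF-β coreceptor, with 65, 43 and 88 counts in ILC1s and 0, 0 and 0 in NK cells (at least 30.2-fold higher, adjusted p = 0.0179). The Eng call was lost without ILC1 libraries 2 and 3 and NK libraries 2 and 3, with adjusted p up to 0.0942.

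Metabolic and structural genes differed singly. Ckb, the brain type creatine kinase, which buffers ATP, had 893, 374 and 974 counts in ILC1s and 1, 0 and 0 in NK cells, a ratio of 3080 (95% counting interval 552 to 122000) (adjusted p = 0.000147), and was the 1 gene of creatine metabolism with enough counts to test. Sept8, a septin of the cell cortex, had 294, 154 and 193 counts in ILC1s and 0, 0 and 0 in NK cells (at least 94.8-fold higher, adjusted p = 0.00159) and was the 1 called of 9 tested septins. Pfkp, the platelet form of phosphofructokinase, was lower, at 7.59, 7.77 and 7.31 log2 CPM in ILC1s and 9.21, 9.34 and 8.78 in NK cells (log2 fold change −1.56, SE 0.21, adjusted p = 0.00678). Those 3 calls were kept in all 6 fits. Ldhb, a lactate dehydrogenase subunit, had 43, 46 and 37 counts in ILC1s and 0, 0 and 0 in NK cells (at least 20.3-fold higher, adjusted p = 0.0285). The Ldhb call was lost without each of the 6 libraries in turn, with adjusted p up to 0.131. Pfkp and Ldhb were the 2 called of 23 tested glycolysis genes (8.7%, against 2.98% over all genes), 1 in each direction. Among 14 tested BCL2 family genes 1 (7.14%), Bcl2a1d, passed (log2 fold change 2.68, adjusted p = 0.0382), but 89.1% of its 31-base words are shared with other genes. The Bcl2a1d call was lost without ILC1 libraries 1 and 3 and NK libraries 1, 2 and 3, with adjusted p up to 0.154. Bcl2 itself, a survival factor linked to IL-7 receptor signalling, did not pass, at 9.75, 8.87 and 9.86 log2 CPM in ILC1s and 8.90, 9.17 and 8.65 in NK cells (log2 fold change 0.64, adjusted p = 0.372).

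Of 12 tested genes of retinoic acid receptors, targets and retinoid metabolism, 1 was called in these control cells (8.33%, against 2.98% over all genes). The altered receptor of the other mice acts on that pathway. Asb2, a substrate adaptor of a ubiquitin ligase first found as a gene induced by retinoic acid, was 8.90, 8.07 and 8.72 log2 CPM in ILC1s and 3.31, 3.88 and 3.11 in NK cells (log2 fold change 5.17, SE 0.34, adjusted p = 0.000216), kept in all 6 fits. The receptors themselves did not differ past the threshold. Rara was 5.54, 5.46 and 4.72 log2 CPM in ILC1s and 4.71, 5.15 and 4.75 in NK cells (log2 fold change 0.40, adjusted p = 0.788), Rarg was 2.82, 3.85 and 3.66 log2 CPM in ILC1s and 4.30, 4.40 and 4.18 in NK cells (log2 fold change −0.82, adjusted p = 0.642), and Rarb had 0 counts in the 3 ILC1 libraries and 2, 0 and 3 in NK cells, too few to test.

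Of 34 tested proliferation genes 1 (2.94%, against 2.98% over all genes) was higher, Cdc20 (log2 fold change 2.20, adjusted p = 0.0498), though the median log2 fold change of the list was 1.26 against 0.01 over all genes tested. The Cdc20 call was lost without each of the 6 libraries in turn, with adjusted p up to 0.164. Of 27 interferon response genes 3 (11.1%) were higher: Ly6e, a surface protein induced by interferon, at 11.03, 11.11 and 10.82 log2 CPM in ILC1s and 9.33, 9.51 and 9.06 in NK cells (log2 fold change 1.68, SE 0.16, adjusted p = 0.00156, kept in all 6 fits), Oasl2 with 46, 69 and 30 counts in ILC1s and 0, 0 and 0 in NK cells (at least 24.4-fold higher, adjusted p = 0.0295), and Igtp (log2 fold change 1.44, adjusted p = 0.0477). The Oasl2 call was lost without each of the 6 libraries in turn, with adjusted p up to 0.137. The Igtp call was lost without each of the 6 libraries in turn, with adjusted p up to 0.162. Of 26 immediate early and heat shock genes, which report handling of cells, 0 were called by edgeR, and the median was −0.16. Of the list, 6 had an unadjusted p under 0.05, DESeq2 called 2 and limma-voom 0. The members with the smallest p were Btg2 (log2 fold change −0.52, adjusted p = 0.143) and Dusp1 (log2 fold change 1.83, adjusted p = 0.0969).

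**Figure D3:**
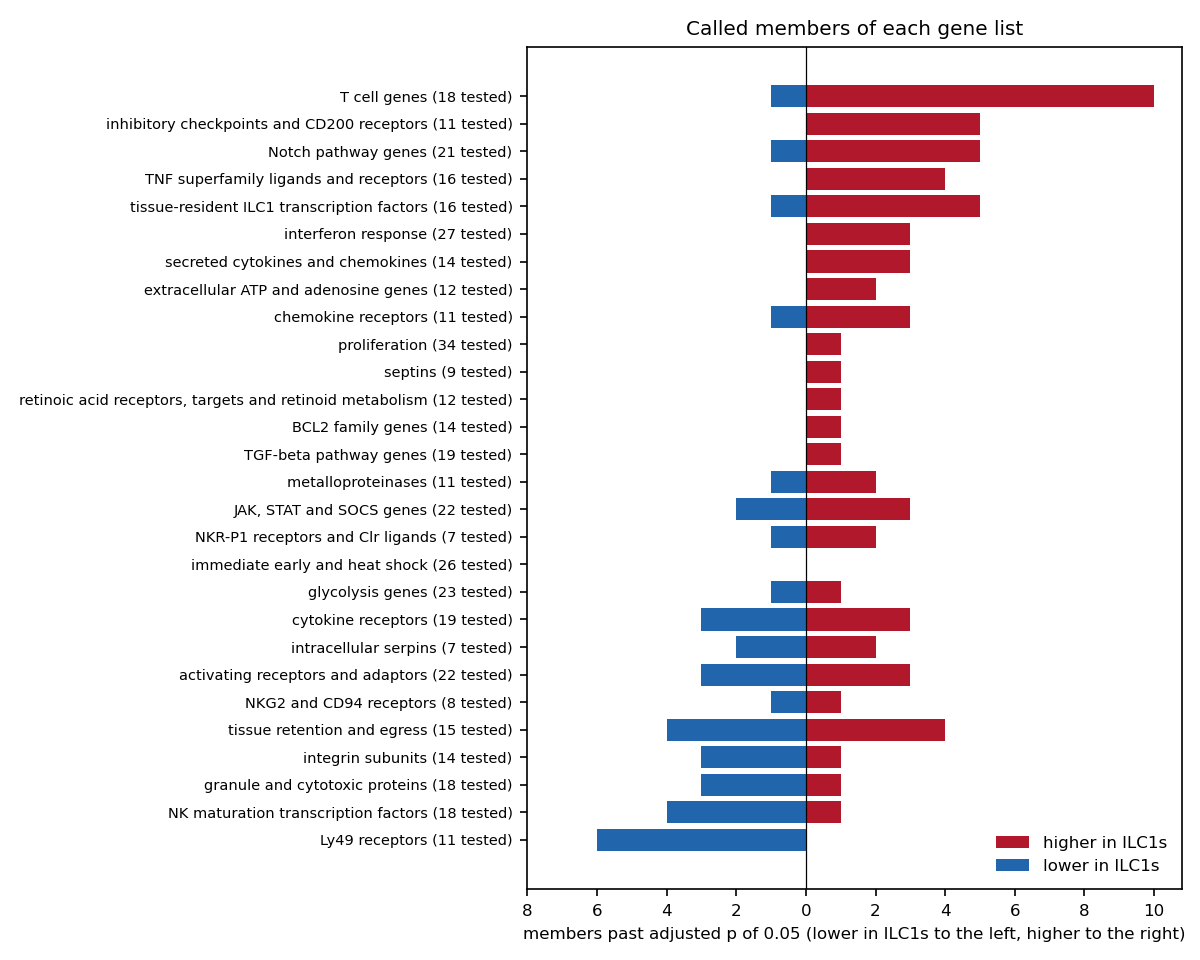
Number of called members (adjusted p of 0.05) in each gene list, with bars to the right for genes higher in ILC1s and to the left for genes lower in ILC1s, and the number tested in parentheses. T cell genes have 10 higher and 1 lower, inhibitory checkpoints and CD200 receptors 5 higher and 0 lower, and Ly49 receptors 0 higher and 6 lower; over all genes tested 1.71% were higher and 1.27% lower.

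T cell genes were the list with the most called members, 10 higher and 1 lower of 18 tested (61.1%, against 2.98% over all genes). The median log2 fold change of the list was 2.54, although both populations had been sorted as CD3-negative. Tcrg-C1, Tcrg-C2 and Cd3e had at most 3 counts in each NK library and passed the filter through ILC1s alone. They could only be higher, so they add no support to that count or median. The γ chain constant regions of the γδ T cell receptor led. Tcrg-C4 was 9.58, 9.32 and 9.36 log2 CPM in ILC1s and 2.91, 2.77 and 3.41 in NK cells (log2 fold change 6.43, SE 0.26, adjusted p = 1.3e-05). Tcrg-C1 had 553, 171 and 110 counts in ILC1s and 0, 1 and 0 in NK cells, a ratio of 1140 (95% counting interval 205 to 45300) (adjusted p = 0.00134), and Tcrg-C2 had 83, 169 and 40 counts in ILC1s and 0, 0 and 0 in NK cells (at least 51.1-fold higher, adjusted p = 0.0217). The Tcrg-C2 call was lost without ILC1 library 2 and NK libraries 1, 2 and 3, with adjusted p up to 0.0911. Of the 31-base words of Tcrg-C1 51% and of those of Tcrg-C2 45.9% are shared with other genes, against 0% for Tcrg-C4, so the levels of the first pair are uncertain. The δ chain constant region Trdc overlapped between the groups, with 65.7, 147 and 24.8 CPM in ILC1s and 106, 165 and 125 in NK cells. Trbc2, a β chain constant region, was 8.80, 8.84 and 9.0 log2 CPM in ILC1s and 6.71, 6.83 and 7.44 in NK cells (log2 fold change 1.85, SE 0.23, adjusted p = 0.00463). Of its 31-base words 48.5% are shared with other genes, and of those of Trbc1, given below, 44.8%, so their levels are uncertain too. Calls of Tcrg-C1, Tcrg-C4 and Trbc2 were kept in all 6 fits. Trac, the α chain constant region, was higher too (log2 fold change 2.77, adjusted p = 0.0176). The Trac call was lost without ILC1 libraries 2 and 3 and NK libraries 1, 2 and 3, with adjusted p up to 0.0791.

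The CD3 chains were uneven between libraries. Cd3e had 51, 150 and 51 counts in ILC1s and 3, 0 and 0 in NK cells, a ratio of 115 (95% counting interval 39 to 563) (adjusted p = 0.0393), and ILC1 library 2 was the highest. The Cd3e call was lost without ILC1 libraries 2 and 3 and NK libraries 1, 2 and 3, with adjusted p up to 0.203. Cd3g had 814, 1056 and 1062 counts in ILC1s and 0, 125 and 10 in NK cells (log2 fold change 5.28, adjusted p = 0.0406). The Cd3g call was lost without ILC1 libraries 1, 2 and 3 and NK libraries 1 and 3, with adjusted p up to 0.173. The level of Cd3g in ILC1s was 114, 303 and 233 CPM. Cd3d, the δ chain, was 10.6, 52.5 and 9.43 CPM in ILC1s and 1.25, 3.92 and 5.4 in NK cells, a difference not past the threshold (log2 fold change 2.77, adjusted p = 0.204). Cd5, Cd6 and Themis, which mark conventional T cells, were at 0, 44 and 36, at 1, 82 and 39, and at 0, 30 and 5 counts in ILC1s and at 0 in all NK libraries. Cd4 and Cd8a had at most 63 counts in any library. Trbc1 (log2 fold change 0.89, adjusted p = 0.0296), Trat1 (log2 fold change 2.91, adjusted p = 0.0375) and Icos (log2 fold change 1.57, adjusted p = 0.0325) were higher too, and Cd2 was lower (log2 fold change −0.98, adjusted p = 0.0342). The Trbc1 call was lost without ILC1 libraries 1 and 3 and NK libraries 1, 2 and 3, with adjusted p up to 0.141. The Icos call was lost without ILC1 libraries 1 and 3 and NK libraries 1, 2 and 3, with adjusted p up to 0.148. The Cd2 call was lost without each of the 6 libraries in turn, with adjusted p up to 0.153. The Trat1 call was lost without each of the 6 libraries in turn, with adjusted p up to 0.176. The summed level of all 23 listed genes was 4372 to 4549 CPM in ILC1 libraries and 2928 to 2995 in NK libraries, so the groups did not overlap. Without a library, 3 to 6 of the list were higher and 0 lower, with 3 higher without NK library 3. Whether a few T cells in the ILC1 gate carried this RNA was not tested.

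Most markers of other cells were below the filter on low counts. A marker that passed the filter through its higher group alone had to differ, so the shares called, against 2.98% over all genes, support nothing by themselves. Of the ILC2 and ILC3 genes, 5 were tested and 2 (40%) were higher, Tmem176b at 9.24, 8.36 and 7.45 log2 CPM in ILC1s and 1.42, 3.37 and 3.69 in NK cells (log2 fold change 5.47, SE 0.68, adjusted p = 0.00464, kept in all 6 fits) and Tmem176a at 2587, 571 and 438 counts in ILC1s and 10, 53 and 0 in NK cells (log2 fold change 6.25, adjusted p = 0.0138), a pair of neighbouring genes for membrane proteins that ILC1s are also known to express. The Tmem176a call was lost without NK library 1, with adjusted p = 0.0667. Other members of the list were uneven. Il22 had 42 counts in ILC1 library 1 and 0 in the other 5, Il23r had 68 and 0, and Il17a, Il13 and Areg had 0 in all 6. Kit had 851, 793 and 316 counts in ILC1s and 216, 776 and 218 in NK cells. Gata3 had 1556, 814 and 1006 in ILC1s and 747, 1559 and 1034 in NK cells. In ILC1 library 2, Arg1 had 14 counts and Nmur1 13. The summed level of the list was 1381, 964.7 and 565.8 CPM in ILC1s and 156.5, 280.8 and 247.2 in NK cells. Of 20 B cell markers 7 were tested and 1 (14.3%) was higher, Ighm (log2 fold change 1.27, adjusted p = 0.0368). Ms4a1 was the 1 marker of that list at 0 in all 6 libraries. Cd79b, a chain of the B cell receptor complex, was 29.4, 16.9 and 19.7 CPM in ILC1s and 0, 3.14 and 0 in NK cells (log2 fold change 4.30, adjusted p = 0.214). H2-Ab1, an MHC class II chain, was 20.4, 8.31 and 1.32 CPM in ILC1s and 0 in all NK libraries, too low to test. The summed level of the list was 590.3 to 827.7 CPM in ILC1s and 247.6 to 253.5 in NK cells. The Ighm call was lost without ILC1 libraries 2 and 3 and NK libraries 1, 2 and 3, with adjusted p up to 0.166. Of 2 tested hepatocyte genes, 1 macrophage gene, 2 endothelial and stellate cell genes and 4 dendritic and erythroid genes, Eng and Xcr1 were called, both described above, and neutrophil markers were too low to test. Apoe, high in ILC1 library 1 at 788, 4 and 25 counts in ILC1s against 6, 43 and 16 in NK cells, did not pass (log2 fold change 3.74, adjusted p = 0.321). What part this RNA has in the results was not tested.

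**Figure D4:**
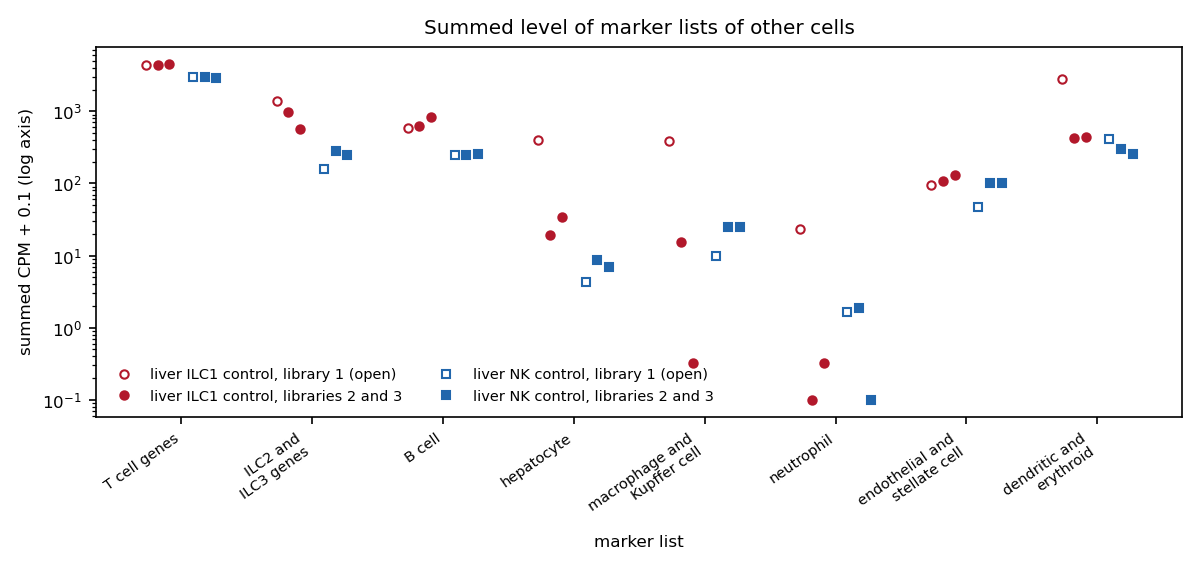
Summed level of each marker list of other cells in the 6 libraries, as CPM plus 0.1 on a log axis, with open symbols for library 1 of each group, circles for ILC1s and squares for NK cells. ILC1 library 1 lies apart for hepatocyte markers (394.5 CPM), macrophage and Kupffer cell markers (385.1 CPM) and dendritic and erythroid markers (2774 CPM), and T cell and B cell sums are higher in all 3 ILC1 libraries than in all 3 NK libraries.

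Among genes outside these families, those with the largest differences had at most 1 count in each library of a group. Higher in ILC1s were Ccdc136, with 400, 119 and 339 counts in ILC1s and 0, 0 and 0 in NK cells (at least 122-fold higher, adjusted p = 0.00199), and Tmem273, with 185, 82 and 511 counts in ILC1s and 0, 0 and 0 in NK cells (at least 120-fold higher, adjusted p = 0.0111), both kept in all 6 fits. Rnase4, a secreted ribonuclease, had 120, 21 and 101 counts in ILC1s and 0, 0 and 0 in NK cells (at least 33.4-fold higher, adjusted p = 0.0209). The Rnase4 call was lost without ILC1 libraries 1 and 3 and NK libraries 1, 2 and 3, with adjusted p up to 0.1. Vill, a relative of the actin-binding protein villin, had 119, 35 and 100 counts in ILC1s and 0, 0 and 0 in NK cells (at least 36.1-fold higher, adjusted p = 0.0139). The Vill call was lost without ILC1 library 3, with adjusted p = 0.0757.

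On the NK side, Mcam, which encodes the adhesion molecule CD146, had 0, 0 and 0 counts in ILC1s and 343, 560 and 490 in NK cells (at least 106-fold lower, adjusted p = 0.00117). Cym, a gene of the aspartic protease chymosin, had 0, 0 and 0 counts in ILC1s and 206, 429 and 594 in NK cells (at least 96.7-fold lower, adjusted p = 0.00459), and Ugt1a7c, a glucuronosyltransferase that shares exons with its neighbours, had 0, 0 and 0 counts in ILC1s and 201, 258 and 150 in NK cells (at least 45.1-fold lower, adjusted p = 0.00427). Rac3, a small GTPase, had 0, 0 and 1 counts in ILC1s and 202, 262 and 260 in NK cells, a ratio of 527 (95% counting interval 94.4 to 20900) in favour of NK cells (adjusted p = 0.00205). The cadherin gene Cdh22 had 0, 1 and 0 counts in ILC1s and 145, 202 and 261 in NK cells, a ratio of 443 (95% counting interval 79.2 to 17500) in favour of NK cells (adjusted p = 0.00464). These 5 calls were kept in all 6 fits. Gpx8 (at least 65.3-fold lower), Rhpn1 (at least 28.6-fold), Cdc42ep4 (at least 23.2-fold) and Tmem151a (at least 22.8-fold) passed too, but their calls were lost in 1 to 3 of those fits, each without NK library 3 among others, with adjusted p up to 0.0797. Khdc1a and Khdc1b, a pair of neighbouring paralogues on chromosome 1, had 550, 27 and 79 and 481, 50 and 161 counts in NK cells and at most 1 in ILC1s. Of their 31-base words 58.6% and 10.4% are shared with other genes, so the level of Khdc1a in particular is uncertain. NK library 1 held most of both, and the calls (adjusted p = 0.0328 and 0.0271) were lost in 5 of the 6 fits, with adjusted p up to 0.159 and 0.0909 without ILC1 library 3. Anxa8 (at least 17-fold lower, adjusted p = 0.0312) passed, but its call was lost without each of the 6 libraries in turn, with adjusted p up to 0.139.

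Of the 5 most abundant called genes in each direction, those not described above were B2m, Gimap4 and Ptprc. B2m, the light chain of MHC class I, was 12.95, 12.78 and 12.57 log2 CPM in ILC1s and 12.10, 11.94 and 12.13 in NK cells (log2 fold change 0.72, SE 0.13, adjusted p = 0.0221), and Gimap4, a GTPase of lymphocyte survival, was 11.63, 11.80 and 11.95 log2 CPM in ILC1s and 10.62, 10.96 and 10.71 in NK cells (log2 fold change 1.03, SE 0.14, adjusted p = 0.00822), kept in all 6 fits. The B2m call was lost without ILC1 libraries 1 and 2 and NK libraries 1, 2 and 3, with adjusted p up to 0.0834. Ptprc, which encodes CD45, was lower in ILC1s (log2 fold change −0.74, adjusted p = 0.0145). The Ptprc call was lost without ILC1 library 1 and NK libraries 1, 2 and 3, with adjusted p up to 0.0602.

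Some called genes lay side by side in the genome. With gaps of at most 100 kb, 34 stretches held 89 of the 343 called genes, 28 of them with calls in 1 direction and 6 with calls in both. At the T cell receptor γ locus (chr13:18948205-19352756, GRCm38) 9 of 10 tested genes were higher in ILC1s, and at the Ly49 cluster (chr6:129972380-130306428) 7 of 10 were lower. The stretch of Gimap3, Gimap4, Gimap7, Tmem176a and Tmem176b (chr6:48684549-48847071) had 5 of 10 higher. On chromosome 13 Gzma, Gzmk, Gpx8 and Cdc20b (chr13:113035111-113225908) were all 4 lower, and on chromosome 10 Prf1 and both its tested neighbours, Adamts14 and Pald1 (chr10:61197112-61383530), were lower. Opposite calls met where Itga2, lower, lies next to Itga1, higher (chr13:114833081-115101964), and where Cx3cr1, lower, lies near Ccr8, higher (chr9:119901616-120094906). In 6 of the 34 stretches gene models overlap, as Pelo does with Itga1, so that reads may be shared between neighbours there.

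The same 2 cell types from livers of RARα403 mice share no library with the comparison above and were used to see in which direction the called genes went. Of the 343 genes 319 could be tested there, and 302 of them (94.7%) had the same sign, against 57% of all genes tested in both. By direction, 169 of 180 higher genes and 133 of 139 lower genes kept their sign. RARα403 NK library 1 stood apart in the series, and without it 329 of 334 (98.5%) had the same sign, against 60.1% of all genes. Leaving out any 1 of the RARα403 libraries, the share of the main calls was 91% to 98.5%. With other settings the genes were those that each setting itself called in control cells. Their share was 85.8% with DESeq2, 86.1% with no filter and 94.6% with RLE scaling or a replicate block. The share over all genes was not computed for those settings. Few single genes passed edgeR's test in those libraries. With all 6 it called 0 genes (0%), while 519 had an unadjusted p below 0.05, DESeq2 called 219 and limma-voom 20. With 5 libraries edgeR called 4 of 12664 (0.0316%), 3 of which were also called in control cells. Among them were Zfp683 (log2 fold change 6.32) and Mcam (−9.55), each with adjusted p = 0.0369 in the 5 libraries.

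**Figure D5:**
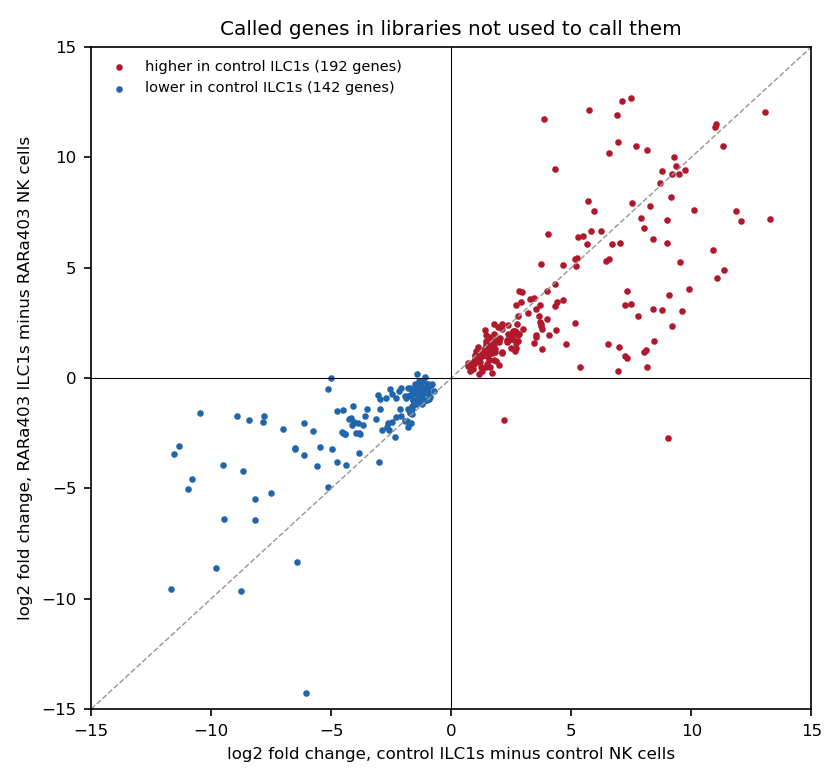
Log2 fold change of ILC1s minus NK cells in control mice (horizontal axis) and in RARα403 mice without NK library 1 (vertical axis) for the 334 called genes tested in both, red for 192 genes higher and blue for 142 lower in control ILC1s, with a dashed line of equality. All but 5 points have the same sign on both axes.

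Levels of 4 of these genes in the other groups, on the scale of all 18 libraries, are given as a description, with no test. Cxcr6 was 10.27, 8.07 and 8.48 log2 CPM in control spleen ILC1s, 8.88, 10.35 and 10.35 in RARα403 liver ILC1s and −1.71, −1.71 and 3.91 in RARα403 liver NK cells. Klra8 was 5.15, 7.27 and 5.47 in control spleen ILC1s and 8.66, 5.97 and −0.76 in RARα403 liver ILC1s, where the 3 libraries spread widely. Mcam was −1.71, −0.79 and 2.81 in control spleen ILC1s and 5.88, 5.55 and 5.79 in RARα403 liver NK cells. Socs2 was 7.78, 7.09 and 5.96 in control spleen ILC1s and 4.68, 4.02 and 4.96 in RARα403 liver NK cells. Control spleen ILC1s and RARα403 liver NK cells differ in tissue, cell type and genotype at once, so their levels are not compared here.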

How the data were processed

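RNA was measured in 200 sorted cells a library. The deposited table gives the authors' raw counts per gene. The submitters' processing notes name fastp 0.23.0 for trimming, HISAT2 2.1.0 and the build mm10 for alignment, and featureCounts of Subread 1.6.5 for counting. They give no annotation release, strand setting or rule for reads that align more than once. All columns were matched to samples, with 0 left over.

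From the counts of the 6 control liver libraries, genes were kept with filterByExpr (minimum count 10), scaled by TMM and tested with the quasi-likelihood test of edgeR 4.0.16 in R 4.3.3, group means only, with Benjamini-Hochberg adjustment over 11522 genes and a threshold of 0.05. The common biological coefficient of variation was 0.521. Standard errors are the fold change divided by the square root of F. Genes with 0 counts in a group are given as a lower bound, with that group at 3 counts per library, and genes with 1 to 3 counts as a ratio of totals with an exact 95% counting interval. With 3 against 3 libraries an exact permutation test of a single value could not go below 0.1, so none is given.

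The members and the 36 gene lists, of 746 entries, were chosen with earlier results of these data known, so counts within a list are descriptions. Genes were named by rule: the 15 largest changes in each direction at 3 log2 CPM or more, without predicted genes, pseudogenes or genes of the sort, up to 4 called members of each list (2 of smallest p where none was called), the 5 most abundant called genes in each direction, the identity markers and a fixed set. Members named beyond this complete a count or were chosen after their values were seen. A few genes so chosen are not reported here.

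Alternatives were DESeq2 1.42.0, limma-voom (limma 3.58.1), RLE scaling, no filter, more libraries in the fit and a replicate block. Others were the opening number of the sample codes as a term, replicates 2 and 3 only, a test against a log2 fold change of 1, and leaving out each library. On simulated data (11522 genes, 200 changed) for this comparison edgeR recovered 2.99% at 2-fold, 52.2% at 4-fold and 77.3% at 16-fold. Of its 100 calls 12 were false, and of the 177 of DESeq2 58. Coordinates of genes are from GENCODE M21 on GRCm38, and promoters from the RefSeq table on GRCm38.p6; proteins were not used here.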

Additional observations from a re-analysis of the deposited data

How the results depend on the processing

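The main test gave 197 genes higher in ILC1s and 146 lower. Limma-voom gave 149 and 120, RLE scaling 198 and 142, and the opening number of the sample codes as a term 170 and 131, all within 1.5 times. Counts moved further with DESeq2 (471 and 326), with no filter on low counts (488 and 323), with all 18 libraries sharing the spread (63 and 26), with replicates 2 and 3 only (47 and 33) and with a test against a log2 fold change of 1 (78 and 45). With 17 libraries, without RARα403 liver NK library 1, they were 188 and 102. Leaving out 1 control library gave 71 to 109 higher and 43 to 106 lower. These fits hold fewer samples. The share of calls that were higher, 57.4% in the main test, was 70.8% with 18 libraries and 47.6% to 65.9% with a library left out.

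Replicate numbers did not count as pairs: deviations of same-numbered libraries correlated at 0.126, 0.098 and 0.124, and each library correlated best with its own number, a hint from the data only. With the replicate number as a block 140 genes were higher and 123 lower, and 226 of the 343 calls were kept. That fit also called Nkg7 (adjusted p = 0.0142), Klrb1c (0.0412) and Klra9 (0.0289), all lower in ILC1s.

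Of 113 called genes that the naming rules chose, all 6 fits without a library kept 56 and all alternatives together 25. Of 2080 values of genes so chosen under alternatives, 1540 kept their side of the threshold and direction, 513 lost the call, 20 gained it and 7 reversed, all of genes not called: Apoe (−0.20 with replicates 2 and 3 only), Gzmb (0.27 without ILC1 library 2 and 0.12 without NK library 1), Ifng (−0.31 without ILC1 library 2 and −0.04 without NK library 3) and Ncr1 (0.08 and 0.07 without the same libraries as for Ifng). With a library left out Gzmb ranged from −0.43 to 0.27, Ifng from −0.31 to 0.65 and Ncr1 from −0.10 to 0.08. The cause was not tested. On data simulated at these library totals with 3 libraries a group, 2.99% of genes changed 2-fold were recovered.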

Other observations

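Several further genes past the threshold belong to known families. They were picked after their values were seen, so the groupings carry no test and no count of how many relatives did not pass. Of the G protein-coupled receptors, 6 that were higher in ILC1s are given here, while S1pr5, described above, was lower. Lpar6, a lysophosphatidic acid receptor, was 8.95, 8.59 and 9.87 log2 CPM in ILC1s and 5.88, 5.91 and 6.37 in NK cells (log2 fold change 3.18, SE 0.35, adjusted p = 0.00269). Adgrg5, an adhesion receptor, was 8.17, 8.17 and 8.48 log2 CPM in ILC1s and 4.71, 4.30 and 4.78 in NK cells (log2 fold change 3.69, SE 0.23, adjusted p = 0.000198), and its neighbour Adgrg3 had 413, 83 and 247 counts in ILC1s and 0, 8 and 0 in NK cells (log2 fold change 6.94, adjusted p = 0.0131). The Adgrg3 call was lost without ILC1 library 3, with adjusted p = 0.0623. Gpr34, a lysophosphatidylserine receptor, had 928, 410 and 431 counts in ILC1s and 0, 51 and 0 in NK cells (log2 fold change 5.75, adjusted p = 0.034), and its NK counts lay in library 2 alone. The Gpr34 call was lost without ILC1 libraries 1, 2 and 3 and NK libraries 1 and 3, with adjusted p up to 0.105. Gpr18 (log2 fold change 1.23, adjusted p = 0.0183) and Gpr55, with 28, 64 and 61 counts in ILC1s and 0, 0 and 0 in NK cells (at least 26.5-fold higher, adjusted p = 0.0296), were higher as well. The Gpr18 call was lost without ILC1 libraries 1 and 2 and NK libraries 1, 2 and 3, with adjusted p up to 0.0921. The Gpr55 call was lost without ILC1 libraries 2 and 3 and NK libraries 1, 2 and 3, with adjusted p up to 0.126. None of the 6 overlapped between the groups, as held for all 343 called genes and for 19.3% of all genes tested.

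A set of surface genes better known from epithelia was higher in ILC1s. Spint2, an inhibitor of membrane serine proteases, was 7.17, 7.12 and 6.96 log2 CPM in ILC1s and 4.90, 4.62 and 4.21 in NK cells (log2 fold change 2.50, SE 0.27, adjusted p = 0.0023), and St14, the protease matriptase that it inhibits, was 5.75, 4.39 and 4.74 log2 CPM in ILC1s and 2.24, 2.16 and 0.97 in NK cells (log2 fold change 3.29, adjusted p = 0.0292). The St14 call was lost without each of the 6 libraries in turn, with adjusted p up to 0.112. Cdh1, which encodes E-cadherin, a ligand of Klrg1, had 174, 54 and 20 counts in ILC1s and 0, 0 and 1 in NK cells, a ratio of 340 (95% counting interval 60.5 to 13500) (adjusted p = 0.0241), Cdh17 had 159, 48 and 52 counts in ILC1s and 0, 3 and 0 in NK cells, a ratio of 118 (95% counting interval 40.1 to 578) (adjusted p = 0.0256) and Epcam had 104, 62 and 151 counts in ILC1s and 3, 0 and 0 in NK cells, a ratio of 145 (95% counting interval 49.2 to 707) (adjusted p = 0.0221). The Epcam call was lost without ILC1 libraries 2 and 3 and NK libraries 2 and 3, with adjusted p up to 0.116. The Cdh1 call was lost without ILC1 libraries 1 and 2 and NK libraries 1, 2 and 3, with adjusted p up to 0.094. The Cdh17 call was lost without ILC1 libraries 1, 2 and 3 and NK libraries 1 and 3, with adjusted p up to 0.0869. St14, Cdh1 and Cdh17 were highest in ILC1 library 1, which had the highest level of hepatocyte markers, and what part that RNA has in these values was not tested.

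On the NK side, 2 β subunits of the sodium and potassium pump were lower in ILC1s by a similar step: Atp1b1 at 6.59, 6.72 and 6.62 log2 CPM in ILC1s and 7.91, 7.67 and 8.03 in NK cells (log2 fold change −1.24, adjusted p = 0.0131) and Atp1b3 at 8.83, 9.19 and 8.59 log2 CPM in ILC1s and 9.94, 10.02 and 10.21 in NK cells (log2 fold change −1.17, adjusted p = 0.0145). The Atp1b1 call was lost without ILC1 library 3 and NK libraries 1 and 3, with adjusted p up to 0.0647. The Atp1b3 call was lost without ILC1 libraries 1 and 3 and NK libraries 2 and 3, with adjusted p up to 0.0699. The annexins Anxa1 at 8.16, 8.34 and 7.89 log2 CPM in ILC1s and 9.32, 9.32 and 9.07 in NK cells (log2 fold change −1.10, adjusted p = 0.0148) and Anxa2 at 8.62, 8.66 and 7.72 log2 CPM in ILC1s and 9.84, 9.80 and 9.58 in NK cells (log2 fold change −1.35, adjusted p = 0.0269), which bind membranes in the presence of calcium, were lower too. The Anxa1 call was lost without ILC1 library 3 and NK libraries 1 and 2, with adjusted p up to 0.0759. The Anxa2 call was lost without ILC1 libraries 1 and 2 and NK libraries 1, 2 and 3, with adjusted p up to 0.0994.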
